A study of Mus musculus with 9 samples.

Results

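Adipocyte marker genes were examined in quadriceps of dystrophin-deficient mice that lacked the mineralocorticoid receptor (MR) in myeloid cells, lacked it in myofibers, or kept it in both. The set holds 10 genes (Adipoq, Plin1, Cidec, Fabp4, Cfd, Retn, Lep, Car3, Cyp2e1 and Scd1), listed by name as markers of fat cells. They were chosen with earlier results of these data known, so the list is not blind to the arrays. A gene was measured through a transcript cluster, the array's unit for 1 transcribed region, that carries its symbol alone, and of several clusters the one with the highest mean over all arrays was used. With this rule 9 of the 10 genes were measured, among 30120 genes with such a cluster and 65672 clusters in all. Cfd, which encodes the adipocyte serine protease adipsin, carried no such cluster and was not analysed here.

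The 9 mice were 8 weeks old, carried the mdx mutation of dystrophin and 2 floxed copies of the MR gene, and gave 1 Clariom D array each. In the 3 LysM-MRcko/mdx mice (2 males, 1 female) Cre was expressed from 1 copy of the lysozyme locus, which is active in myeloid cells. In the 3 MCK-MRcko/mdx mice (1 male, 2 females) 1 copy of a muscle creatine kinase promoter transgene expressed Cre in myofibers. The 3 Cre-/mdx mice (2 males, 1 female) were littermates with the floxed MR gene and no Cre. Nr3c2, which encodes MR, lay between 6.89 and 6.96 on the log2 scale in LysM-MRcko/mdx mice, between 6.74 and 6.87 in MCK-MRcko/mdx mice and between 6.89 and 7.12 in Cre-/mdx mice. The array value takes in exons beyond the floxed part and RNA of every cell type, and so checks little about the deletion.

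Fat cells store triglyceride in a lipid droplet and release adipokines into the blood. They lie between the fibers of skeletal muscle, arise there from fibro-adipogenic progenitors, and become more numerous as dystrophic muscle degenerates. Some of the measured genes belong to the droplet (Plin1 coats it and Cidec enlarges it), some are secreted (Adipoq, Retn and Lep encode adiponectin, resistin and leptin), and the rest serve lipid handling and metabolism. Fabp4 carries fatty acids and is also made by capillary endothelium and macrophages. Scd1 desaturates fatty acids, Cyp2e1 is a cytochrome P450, and Car3 is a carbonic anhydrase abundant in slow myofibers as well as in fat. In a piece of whole muscle, more fat cells and more of a transcript per fat cell cannot be told apart. The amount of fat in the muscles was not measured, so the mean log2 signal of Adipoq, Plin1 and Cidec, hereafter the core index, was used as a scale of adipocyte RNA against which the other members were set.

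Promoter sequence of 4 members is shown to make visible how differently the genes of this set begin, because the set was defined by cell type and not by shared control. The windows run from 250 bases before to 50 bases after the RefSeq start on build GRCm38.p6, and 7 of the 10 genes had such a window. Capitals mark matches, on either strand, to TTGCNNAA (a C/EBP-type motif), TTGCGCAA (its palindromic form), TATAAA and CCAAT. These letters occur in 10.8%, 0.183%, 13.6% and 37.4% of all 32851 promoters in the table, in that order. TTGCGCAA is a special case of TTGCNNAA, so the matches to these overlap. The PPAR-type DR1 motif, a direct repeat with a spacer of 1 base that 0.381% of promoters hold, was found in none of the windows of the set. A match is a description of these letters and not a site shown to be bound.
Lep, chr6:29059971-29060270, plus strand: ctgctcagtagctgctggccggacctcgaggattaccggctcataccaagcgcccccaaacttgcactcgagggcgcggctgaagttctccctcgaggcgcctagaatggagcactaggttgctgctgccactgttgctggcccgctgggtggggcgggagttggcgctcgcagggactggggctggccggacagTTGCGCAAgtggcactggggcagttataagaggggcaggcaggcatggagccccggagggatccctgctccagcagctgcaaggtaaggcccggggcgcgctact
Plin1, chr7:79732727-79733026, minus strand: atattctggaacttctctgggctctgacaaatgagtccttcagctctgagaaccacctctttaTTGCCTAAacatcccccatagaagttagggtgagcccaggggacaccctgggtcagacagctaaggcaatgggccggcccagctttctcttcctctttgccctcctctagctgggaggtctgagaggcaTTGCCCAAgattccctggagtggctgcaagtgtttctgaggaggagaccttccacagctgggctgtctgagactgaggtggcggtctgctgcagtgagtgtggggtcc
Adipoq, chr16:23146286-23146585, plus strand: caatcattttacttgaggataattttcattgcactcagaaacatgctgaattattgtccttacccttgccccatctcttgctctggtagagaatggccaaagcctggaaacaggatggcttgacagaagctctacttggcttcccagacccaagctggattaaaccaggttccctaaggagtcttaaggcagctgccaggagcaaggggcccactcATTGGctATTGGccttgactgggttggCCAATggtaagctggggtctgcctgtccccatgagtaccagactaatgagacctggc
Cyp2e1, chr7:140763569-140763868, plus strand: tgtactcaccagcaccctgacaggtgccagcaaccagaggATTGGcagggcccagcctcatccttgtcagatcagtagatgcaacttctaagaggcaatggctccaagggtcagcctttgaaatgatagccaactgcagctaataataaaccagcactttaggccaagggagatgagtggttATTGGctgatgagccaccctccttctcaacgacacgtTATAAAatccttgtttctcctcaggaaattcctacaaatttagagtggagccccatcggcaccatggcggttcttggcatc
Lep and Plin1 held C/EBP-type matches, Lep 1 of the palindromic form and Plin1 a pair of the general form. Cidec, not shown, held 1 of the general form in its window chr6:113434715-113435014, at −198 from the start. Its other window, chr6:113435711-113436010, matched none of the motifs. Adipoq held 3 CCAAT matches and neither C/EBP form, and Cyp2e1 held TATAAA and 2 CCAAT matches. Retn and Cfd matched none of the motifs.

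Values are log2 signals normalized by the authors, and array medians lay between 4.70 and 4.78. Every measured member stood at or above the 71.4 percentile of clusters by its mean. A transcript cluster was called when its group means were 2-fold or more apart (1 in log2 units) with an unadjusted p under 0.05 in a limma model of all arrays with 1 mean per group. No cluster reached an adjusted p of 0.05 in any comparison of genotypes. Clusters with an unadjusted p under 0.05 numbered 4069 (6.2%) in LysM-MRcko/mdx against Cre-/mdx and 3640 (5.54%) in MCK-MRcko/mdx against Cre-/mdx. They numbered 4679 (7.12%) in LysM-MRcko/mdx against MCK-MRcko/mdx. An exact permutation test of 3 mice against 3 cannot give a p below 0.10. The 12 listed myofiber genes averaged between 17.3 and 17.6 in every mouse. Acta1, Myh4 and Tnnt3 stood at 19.93, the top of the scale, in every array, where a change could not show, and Myh7 spanned 2.81.

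The 3 core genes differed widely between individual mice, and the spread crossed the genotypes. Adipoq had log2 levels of 8.95, 8.84 and 10.12 in LysM-MRcko/mdx mice, 7.48, 7.90 and 8.21 in MCK-MRcko/mdx mice, and 7.82, 9.77 and 7.46 in Cre-/mdx mice. Plin1 had log2 levels of 8.57, 7.66 and 9.67 in LysM-MRcko/mdx mice, 6.84, 7.75 and 7.69 in MCK-MRcko/mdx mice, and 7.69, 9.25 and 6.85 in Cre-/mdx mice. Cidec had log2 levels of 11.13, 10.87 and 12.76 in LysM-MRcko/mdx mice, 9.73, 10.80 and 9.47 in MCK-MRcko/mdx mice, and 10.39, 11.79 and 9.04 in Cre-/mdx mice. In all 3 genes the highest mouse was the female LysM-MRcko/mdx mouse and the next highest was the female Cre-/mdx mouse. Every LysM-MRcko/mdx mouse lay above every MCK-MRcko/mdx mouse in Adipoq and Cidec, but not in Plin1, and both knockouts overlapped the Cre-/mdx mice in all 3 genes.

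The whole range over the 9 mice was 6.32-fold for Adipoq, 7.11-fold for Plin1 and 13.2-fold for Cidec. Such a range is unusual among all clusters, since 2.72% of them spanned 2 or more on the log2 scale. That share takes in clusters of any signal, and the share among clusters as bright as these genes is not given here. The core index averaged 9.84 ± 0.90 in LysM-MRcko/mdx mice, 8.43 ± 0.40 in MCK-MRcko/mdx mice and 8.90 ± 1.26 in Cre-/mdx mice (SD, n = 3 each). Within the Cre-/mdx group it ran between 7.78 and 10.27, which was wider than any difference between group means.

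**Figure D1:**
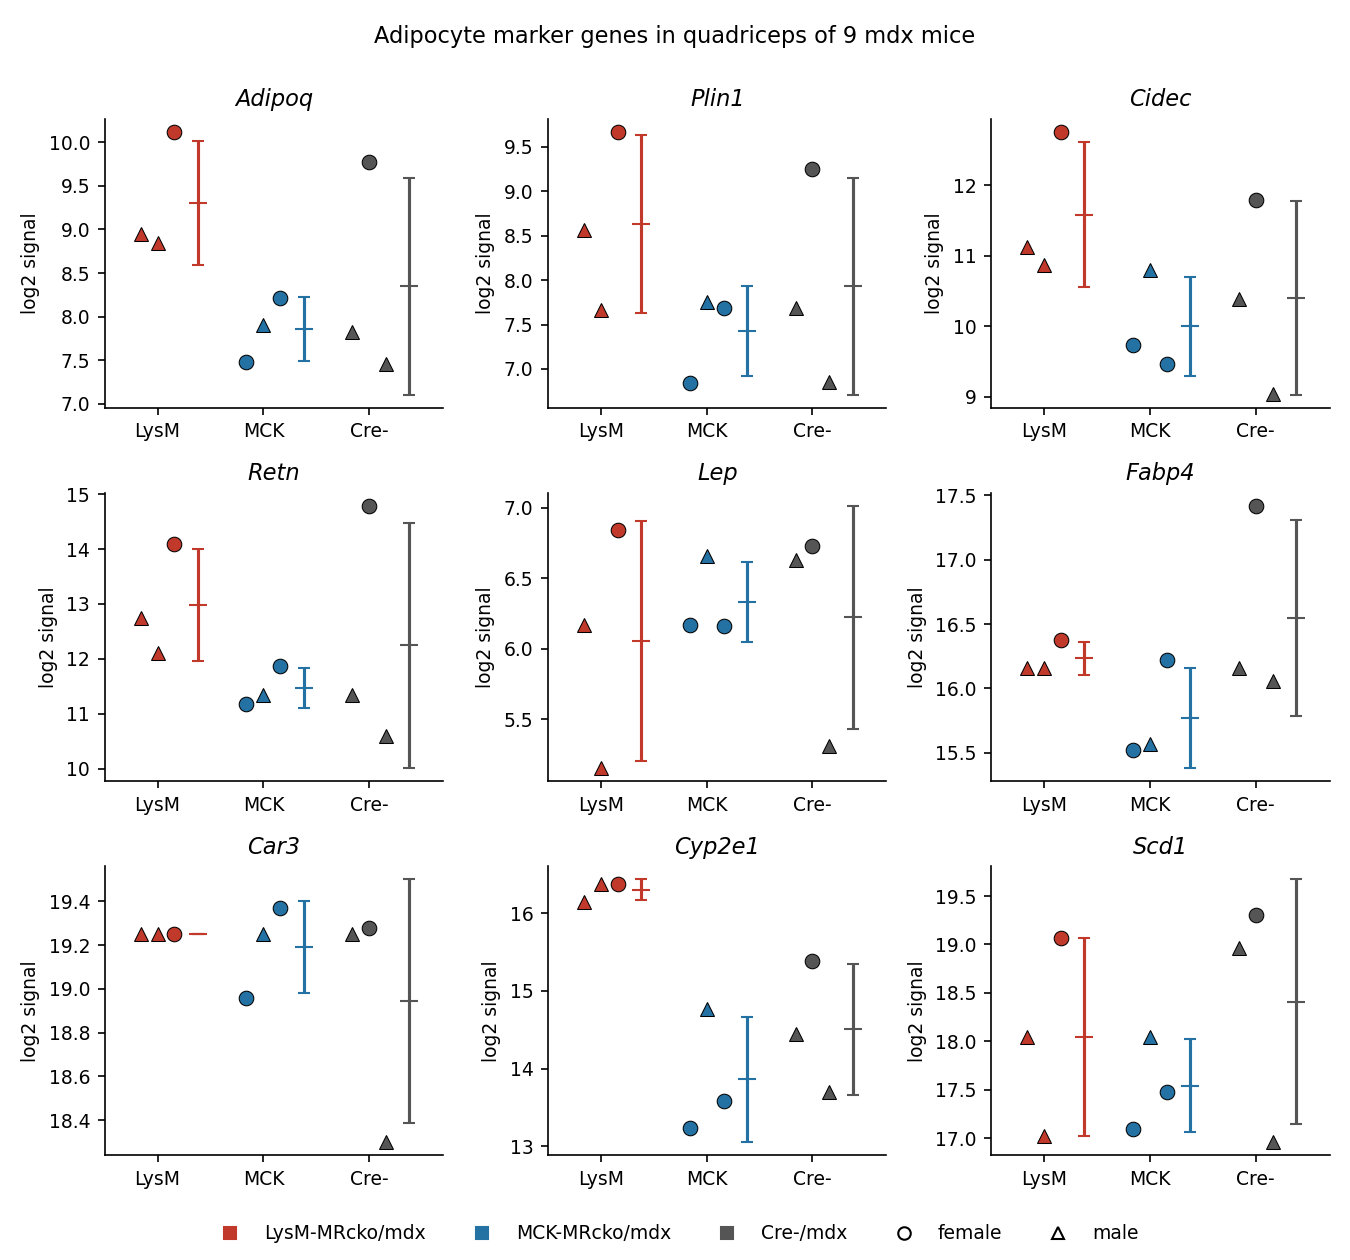
Log2 signal of the 9 measured members (vertical axes, which differ between panels and do not start at 0) in each mouse of the 3 genotypes (horizontal axis, LysM for LysM-MRcko/mdx, MCK for MCK-MRcko/mdx, Cre- for Cre-/mdx). Circles are females and triangles males, and the bar beside the points is the group mean with its SD (n = 3). The female LysM-MRcko/mdx and Cre-/mdx mice top the core genes, whereas the LysM-MRcko/mdx mice lie together above all others in Cyp2e1.

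LysM-MRcko/mdx muscle was compared with Cre-/mdx muscle to ask what loss of MR in myeloid cells did to these genes. Cyp2e1 was the 1 member of 9 that was called, and it was higher in LysM-MRcko/mdx, whereas 0.376% of all clusters were called in this comparison. Cyp2e1 had log2 levels of 16.15, 16.38 and 16.38 in LysM-MRcko/mdx mice, 13.23, 14.77 and 13.58 in MCK-MRcko/mdx mice, and 14.44, 15.38 and 13.70 in Cre-/mdx mice. All 3 LysM-MRcko/mdx mice lay above all other mice and within 0.23 of one another. Such separation from Cre-/mdx, upward, was seen in 3.29% of clusters. The difference from Cre-/mdx was 1.80 on the log2 scale, or 3.47-fold, with an SE of 0.51 and a 95% interval of 0.58 to 3.01 (limma, unadjusted p = 0.00994, adjusted p = 0.785). The exact permutation p was 0.1, the smallest possible. The study listed Cyp2e1 among its changed genes from the same arrays, so that the call is not independent evidence.

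The core genes were higher in LysM-MRcko/mdx on average but did not pass. Their differences from Cre-/mdx were 0.95 for Adipoq, 0.70 for Plin1 and 1.18 for Cidec, each with an interval that included 0 (limma, unadjusted p = 0.183, 0.364 and 0.188). The median difference of the 9 members was 0.70, beside 0.00 over all clusters, with 6 members above 0 and 3 below. A further list of 19 measured adipocyte genes had a median of −0.03 here, with 7 above 0 and 12 below. The values of the members depended on single mice. Without the female Cre-/mdx mouse, Adipoq differed by 1.66, Cidec by 1.87 and Retn by 2.01, all were called in limma (unadjusted p = 0.00873, 0.0469 and 0.0162), and 4 members were called in all. The 0.376% of clusters called belongs to the fit with all mice, and the share in this smaller fit is not given here. Without the third Cre-/mdx mouse the median of the members was −0.015, with Adipoq at 0.51, Plin1 at 0.16, Cidec at 0.50 and Retn at −0.0867. Without the female LysM-MRcko/mdx mouse the median was 0.185, with Adipoq at 0.545 and Cidec at 0.59.

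MCK-MRcko/mdx muscle, compared with Cre-/mdx muscle to ask about MR in myofibers, gave no called member. The limma fit called 0 of 9 members at its rule and 0 had an unadjusted p under 0.05, where 0.321% of all clusters were called and 5.54% had such a p. The median difference of the members was −0.50, beside 0.00 over all clusters, with 7 of 9 below 0. The direction depended on the same mouse. Without the female Cre-/mdx mouse the differences of Adipoq, Plin1, Cidec and Retn were 0.22, 0.16, 0.29 and 0.50, where with it they were −0.49, −0.50, −0.41 and −0.78. Without the third Cre-/mdx mouse, which had the lowest core index, Fabp4 and Scd1 were called lower, at −1.02 and −1.59 (limma, unadjusted p = 0.0433 and 0.0399). Without the third MCK-MRcko/mdx mouse Fabp4 was called lower, at 2-fold (limma, unadjusted p = 0.0497).

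The knockouts were also compared with each other, to set loss of MR in myeloid cells against its loss in myofibers. In LysM-MRcko/mdx against MCK-MRcko/mdx, Cyp2e1 was 2.44 higher on the log2 scale, or 5.44-fold, with an SE of 0.51 and an interval of 1.23 to 3.66 (limma, unadjusted p = 0.00205, adjusted p = 0.494). It was again the 1 called member of 9, where 0.429% of clusters were called. Adipoq, Cidec, Retn and Cyp2e1 were higher in every LysM-MRcko/mdx mouse than in every MCK-MRcko/mdx mouse, which was 4 of 9 members against 3.72% of clusters. Apart from Cyp2e1 none of these differences passed the rule, and they were 1.44 for Adipoq, 1.59 for Cidec and 1.52 for Retn (limma, unadjusted p = 0.0607, 0.0907 and 0.205). The median over the members was 1.21, beside 0.00 over all clusters, and 8 of 9 members were above 0. With 1 array left out this median ran between 0.69 without the female LysM-MRcko/mdx mouse and 1.67 without the second LysM-MRcko/mdx mouse. The 3 comparisons share their groups, so they are not separate evidence for one direction. Without the female Cre-/mdx mouse, which enters here only through the shared spread, Adipoq and Retn were called too (limma, unadjusted p = 0.0101 and 0.0317).

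Sex was unequal between the groups and moved with the same genes. Females exceeded males in 9 of 9 members in a limma model with group and sex, with a median difference of 0.70 on the log2 scale. Of these, Adipoq (1.10) and Retn (1.89) were called (unadjusted p = 0.0341 and 0.0284, adjusted p = 0.869 for both), where 0.175% of clusters were called. The difference in Cyp2e1 was 0.02. The 19 measured genes of a further list of adipocyte genes were also all at or above 0, with 0 called and a median of 0.48. This model fits the same sex difference to every genotype, and MCK-MRcko/mdx, the only group with 2 females, mostly went the other way. There the female mean lay below the male in Adipoq, Plin1, Cidec, Lep, Car3, Cyp2e1 and Scd1, and above it in Fabp4 and Retn. The core index there was 8.24 in females and 8.82 in the male. Without the female Cre-/mdx mouse the differences of Adipoq and Retn were 0.58 and 0.92, and neither was called. With 1 array left out, the call of Adipoq held only where that array was the first or second MCK-MRcko/mdx mouse, and that of Retn was also lost without the first Cre-/mdx mouse (1.82), the second LysM-MRcko/mdx mouse (1.82) or the third (2.00).

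The order of the genotypes was not the same in females and males. In females the core index was 10.85 in LysM-MRcko/mdx (1 mouse), 8.24 in MCK-MRcko/mdx (2 mice) and 10.27 in Cre-/mdx (1 mouse). In males it was 9.34 in LysM-MRcko/mdx (2 mice), 8.82 in MCK-MRcko/mdx (1 mouse) and 8.21 in Cre-/mdx (2 mice). MCK-MRcko/mdx thus differed from Cre-/mdx by −2.03 in females and by 0.61 in males. Whether the genotype difference of each member depended on sex was tested in a limma model with 1 mean per genotype and sex, which left 3 residual degrees of freedom. For MCK-MRcko/mdx minus Cre-/mdx, 4 of 9 members were called, where 1.12% of clusters were, each with a lower difference in females than in males. Adipoq differed between these groups by −1.93 in females and 0.26 in males, Cidec by −2.19 and 1.09, Retn by −3.27 and 0.38, and Cyp2e1 by −1.98 and 0.70 (unadjusted p = 0.0143, 0.0214, 0.00949 and 0.00815, smallest adjusted p = 0.5). For LysM-MRcko/mdx minus Cre-/mdx, Retn alone was called, at −0.69 in females and 1.46 in males (unadjusted p = 0.0498), where 1.01% of clusters were called. For LysM-MRcko/mdx minus MCK-MRcko/mdx, Cidec alone was called, at 3.16 in females and 0.20 in males (unadjusted p = 0.0293), where 0.824% were. No cluster reached an adjusted p of 0.05 in these tests. The called genes varied together from mouse to mouse and are not separate evidence. The female LysM-MRcko/mdx, male MCK-MRcko/mdx and female Cre-/mdx mice were each alone in their genotype and sex, so that a test that uses one of them cannot be made without it, and each is assumed to vary like the others. Cyp2e1 was higher in LysM-MRcko/mdx than in Cre-/mdx by 1.00 in females and by 2.20 in males, and higher than in MCK-MRcko/mdx in both sexes, by 2.98 in females. With sex as a covariate Adipoq and Retn were called higher in LysM-MRcko/mdx than in MCK-MRcko/mdx besides Cyp2e1, at 1.81 and 2.15 (limma, unadjusted p = 0.00968 and 0.035).

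Retn followed the core genes most closely among the other members. Its log2 levels were 12.75, 12.10 and 14.10 in LysM-MRcko/mdx mice, 11.18, 11.35 and 11.87 in MCK-MRcko/mdx mice, and 11.35, 14.79 and 10.59 in Cre-/mdx mice. The female Cre-/mdx mouse was the highest of all, and the whole range was 18.4-fold, the widest of the set. Over the 9 mice its Pearson correlation with the core index was 0.94 (exact permutation p = 4.63e-04, adjusted p = 0.00104 over 9 such relations) and its Spearman correlation 0.93 (exact permutation p = 7.72e-04, adjusted p = 0.0059). Without the 2 mice farthest from the median index, the female LysM-MRcko/mdx and Cre-/mdx mice, r was 0.90, and for deviations from the group means it was 0.94. Each unit of core index went with 1.46 ± 0.22 units of Retn (SE).

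Cyp2e1 and Scd1 correlated with the index less tightly. For Cyp2e1 r was 0.82 (exact permutation p = 0.00758, adjusted p = 0.0136), rho was 0.86 (exact permutation p = 0.00473, adjusted p = 0.00851), and r was 0.90 without the 2 farthest mice. These values take in the differences between genotypes. Within LysM-MRcko/mdx, Cyp2e1 stayed between 16.15 and 16.38 while the index ran between 9.12 and 10.85. For Scd1 r was 0.74 (exact permutation p = 0.023, adjusted p = 0.0344) and rho was 0.74 (exact permutation p = 0.028, adjusted p = 0.042). Without the 2 farthest mice r of Scd1 was 0.40, so that the relation over all mice did not hold without them. For deviations from group means r was 0.74 for Cyp2e1 and 0.89 for Scd1, and the slopes on the index with group in the model were 0.54 ± 0.20 and 0.94 ± 0.20 (SE, limma, unadjusted p = 0.0358 and 0.00309).

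For Fabp4, Car3 and Lep the correlation over all 9 mice did not pass the threshold. Their r values were 0.63, 0.55 and 0.52 (exact permutation p = 0.0626, 0.121 and 0.141, adjusted p = 0.0805, 0.136 and 0.141), and their rho values 0.68, 0.47 and 0.61 (exact permutation p = 0.0515, 0.214 and 0.0869, adjusted p = 0.0662, 0.214 and 0.0978). Within groups they followed the index more closely. The r of deviations from group means was 0.76 for Fabp4, 0.64 for Car3 and 0.83 for Lep, and the slope on the index with group in the model was 0.41 ± 0.14, 0.24 ± 0.12 and 0.62 ± 0.17 (SE, limma, unadjusted p = 0.0287, 0.0895 and 0.0101). In all, 5 of the 6 members outside the index had a slope with an unadjusted p under 0.05 in limma, where 6.34% of clusters did. Fabp4 had log2 levels of 16.16, 16.16 and 16.38 in LysM-MRcko/mdx mice, 15.52, 15.57 and 16.22 in MCK-MRcko/mdx mice, and 16.16, 17.42 and 16.06 in Cre-/mdx mice. Its range of 3.73-fold was narrower than that of any core gene, and the female Cre-/mdx mouse stood above the rest. Lep was the dimmest member, with log2 levels of 6.17, 5.15 and 6.84 in LysM-MRcko/mdx mice, 6.17, 6.66 and 6.16 in MCK-MRcko/mdx mice, and 6.63, 6.73 and 5.31 in Cre-/mdx mice. Its groups overlapped throughout. Car3 had log2 levels of 19.25, 19.25 and 19.25 in LysM-MRcko/mdx mice, 18.96, 19.25 and 19.37 in MCK-MRcko/mdx mice, and 19.25, 19.28 and 18.30 in Cre-/mdx mice. It lay close to the top of the scale at 19.93, with the identical value in 5 arrays, so that a change upward in Car3 could hardly show.

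**Figure D2:**
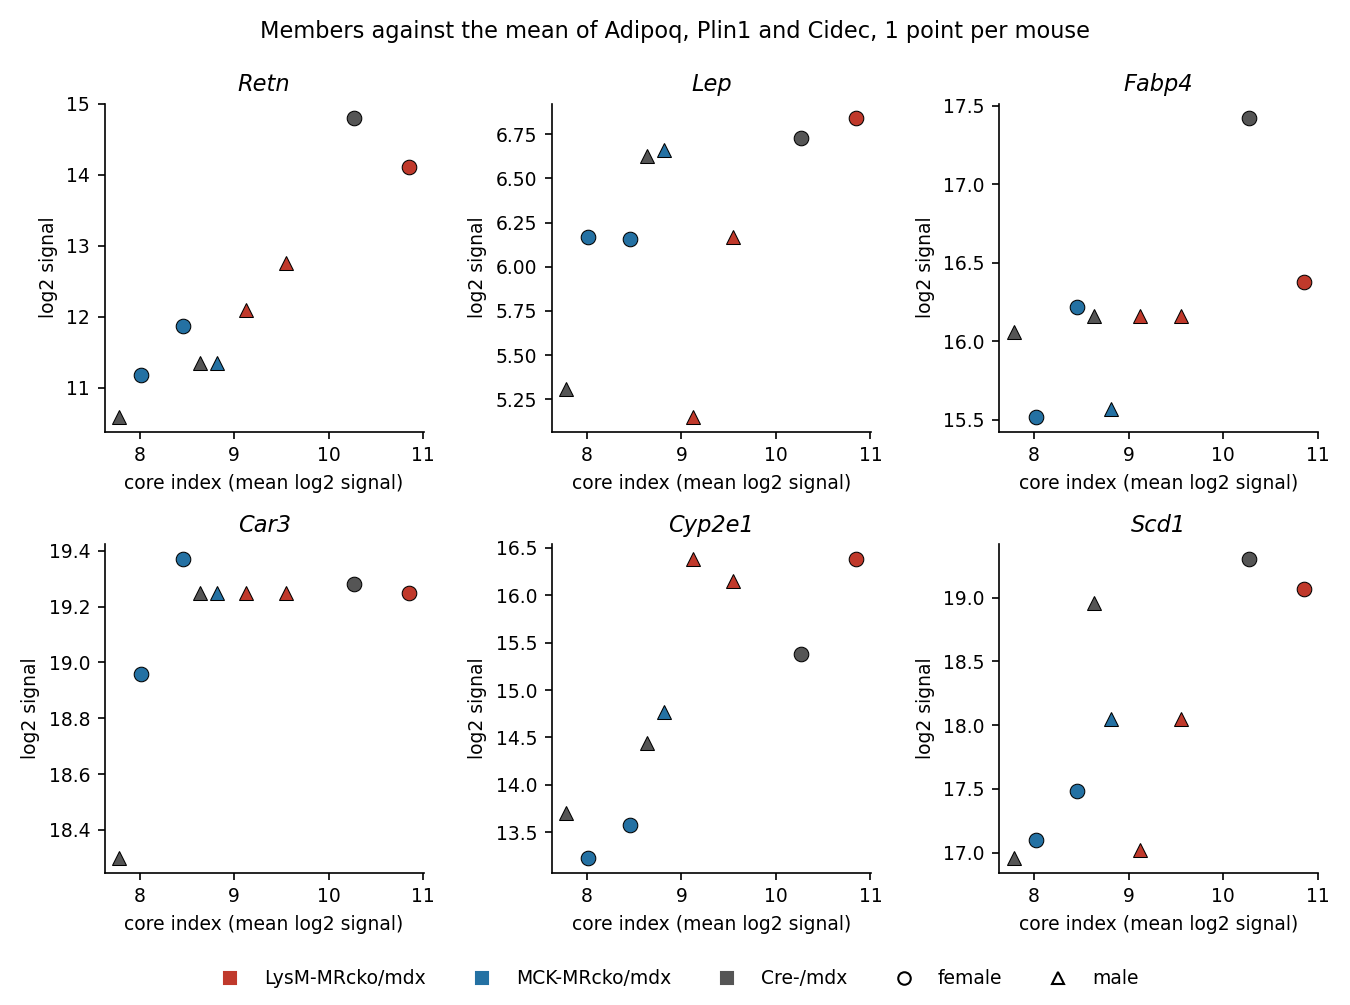
Log2 signal of Retn, Lep, Fabp4, Car3, Cyp2e1 and Scd1 (vertical axes) against the core index, the mean log2 signal of Adipoq, Plin1 and Cidec (horizontal axes), with 1 point per mouse, coloured by group and shaped by sex. Retn rises along the index (r = 0.94), the LysM-MRcko/mdx points lie above the other mice in Cyp2e1, and Car3 holds 19.25 in 5 mice and is lowest, at 18.30, in the mouse of lowest index.

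The core index was then added to the model, which compares the genotypes at an equal index and assumes the same slope in each group. For Cyp2e1 a rise along the index was not seen within the LysM-MRcko/mdx mice. The index ran between 9.12 and 10.85 in LysM-MRcko/mdx mice and between 8.02 and 8.82 in MCK-MRcko/mdx mice. These ranges do not overlap, so each comparison of the knockouts at an equal index extends the fitted line beyond the mice of at least 1 of the groups. Cyp2e1 was still higher in LysM-MRcko/mdx, by 1.28 ± 0.42 (SE) against Cre-/mdx (95% interval 0.26 to 2.31, limma, unadjusted p = 0.022, adjusted p = 0.602) and by 1.68 ± 0.47 against MCK-MRcko/mdx (unadjusted p = 0.0116, adjusted p = 0.678). Scd1 was lower in LysM-MRcko/mdx than in Cre-/mdx by this measure, at −1.25 ± 0.41 (interval −2.26 to −0.25, unadjusted p = 0.0226, adjusted p = 0.602), and Lep was lower than in MCK-MRcko/mdx, at −1.16 ± 0.39 (unadjusted p = 0.0256, adjusted p = 0.697). Against this, 0.266% of clusters were called higher and 0.317% lower for LysM-MRcko/mdx minus Cre-/mdx at an equal index, and 0.353% higher and 0.471% lower for LysM-MRcko/mdx minus MCK-MRcko/mdx. Retn was not called, and its difference from Cre-/mdx was −0.64 at an equal index and 0.74 without the index. No member was called between MCK-MRcko/mdx and Cre-/mdx, where 0.187% of clusters were called higher and 0.104% lower.

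The calls of Cyp2e1 and Scd1 at an equal index depended on single mice. For Lep no such values are given, and its difference between the knockouts without the index was −0.28 (limma, unadjusted p = 0.613). Between LysM-MRcko/mdx and Cre-/mdx the difference of Cyp2e1 was 1.53 without the second Cre-/mdx mouse, 1.28 without the first LysM-MRcko/mdx mouse and 0.90 without the second, and none of these was called (limma, unadjusted p = 0.0784, 0.0573 and 0.11). Between the knockouts it was 1.24 without the second LysM-MRcko/mdx mouse and not called (unadjusted p = 0.0635). Scd1 was −0.90 without the first Cre-/mdx mouse, short of 2-fold, and −0.96 without the second LysM-MRcko/mdx mouse (unadjusted p = 0.00757 and 0.109), and neither was called. Without the second Cre-/mdx mouse Scd1 was called lower against MCK-MRcko/mdx too, at −1.33 (unadjusted p = 0.0322). By contrast the Cyp2e1 differences without the index were called with any 1 array left out, between 1.39 and 2.23 against Cre-/mdx and between 2.13 and 2.90 against MCK-MRcko/mdx.

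**Figure D3:**
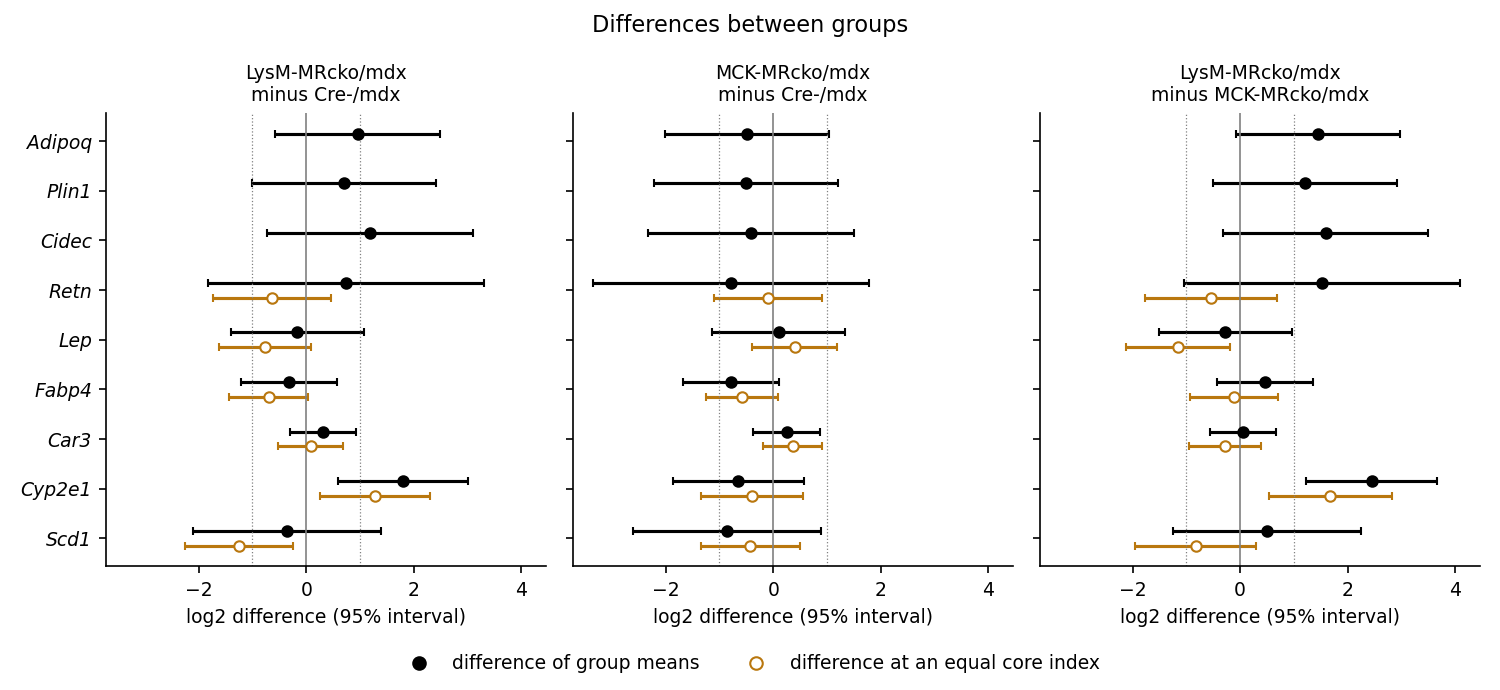
Log2 differences with 95% intervals (horizontal axes) for the 9 measured members (rows) in the 3 comparisons. Filled black points are differences of group means and open points are differences at an equal core index, which is not defined for Adipoq, Plin1 and Cidec. Dotted lines mark 2-fold. The interval of Cyp2e1 lies above 0 in both comparisons with LysM-MRcko/mdx, with and without the index, and that of Scd1 lies below 0 against Cre-/mdx at an equal index only.

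Scd1 itself had log2 levels of 18.05, 17.02 and 19.07 in LysM-MRcko/mdx mice, 17.10, 18.05 and 17.48 in MCK-MRcko/mdx mice, and 18.96, 19.30 and 16.96 in Cre-/mdx mice. The first Cre-/mdx mouse, whose core index was 8.63, lay with the 2 mice of highest index. A dimmer second Scd1 cluster showed the same mice apart, with 13.48, 11.58 and 16.39 in LysM-MRcko/mdx mice, 12.43, 13.48 and 13.35 in MCK-MRcko/mdx mice, and 16.12, 17.18 and 11.35 in Cre-/mdx mice. Its difference of −1.07 between LysM-MRcko/mdx and Cre-/mdx did not pass (limma, unadjusted p = 0.559).

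Scd1 acts in a pathway that makes fat from carbohydrate, and 13 of 14 listed genes of fatty acid and triglyceride synthesis were measured beside it. Without the index none of them was called in any comparison of genotypes, and their median difference from Cre-/mdx was −0.20 in the LysM knockout and −0.96 in the MCK knockout. At an equal core index the 13 had a median of −0.86 in LysM-MRcko/mdx against Cre-/mdx, beside 0.00 over all clusters. Whereas 0.266% of all clusters were called higher there and 0.317% lower, 0 of the 13 were called higher and 6 lower. They were Acly (−2.44), which supplies cytosolic acetyl-CoA, Acaca (−2.50), Fasn (−2.93) and Elovl6 (−3.53), which build and lengthen the acyl chain, Me1 (−2.37), which supplies NADPH, and Dgat2 (−1.60), which completes triglyceride (limma, unadjusted p = 0.00161, 0.00329, 0.00586, 0.00424, 0.0014 and 5.32e-04, smallest adjusted p = 0.507). The count was 6 with any 1 array left out, and the median ran between −1.52 without the second LysM-MRcko/mdx mouse and −0.49 without the first. All 6 genes were highest in the female Cre-/mdx mouse, so they are not separate evidence. Values below 0 at an equal index were not particular to these genes, since the 19 other adipocyte genes had a median of −0.49 in the same comparison, with 18 below 0 and 2 called lower (Aqp7 and Thrsp), and the 6 members outside the index had a median of −0.67, with 4 below 0. At an equal index 5 of the 13 were also called lower against MCK-MRcko/mdx, where 0.471% of clusters were. That count was between 2 and 5 with 1 array left out. Acly and Fasn were called lower in MCK-MRcko/mdx against Cre-/mdx, where 0.104% of clusters were, a count between 0 and 4.

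The values by mouse show where these differences lay. Fasn had log2 levels of 11.13, 9.63 and 14.10 in LysM-MRcko/mdx mice, 8.42, 9.67 and 10.12 in MCK-MRcko/mdx mice, and 12.93, 15.16 and 8.76 in Cre-/mdx mice. Elovl6 had log2 levels of 7.69, 7.42 and 9.38 in LysM-MRcko/mdx mice, 8.33, 8.33 and 8.10 in MCK-MRcko/mdx mice, and 11.11, 12.36 and 7.20 in Cre-/mdx mice. The first and second Cre-/mdx mice were high in both genes, and the third was at or near the bottom, so that the groups overlapped. The female LysM-MRcko/mdx mouse had the highest core index of all but differed from the female Cre-/mdx mouse by −1.06 in Fasn and −2.98 in Elovl6.

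**Figure D4:**
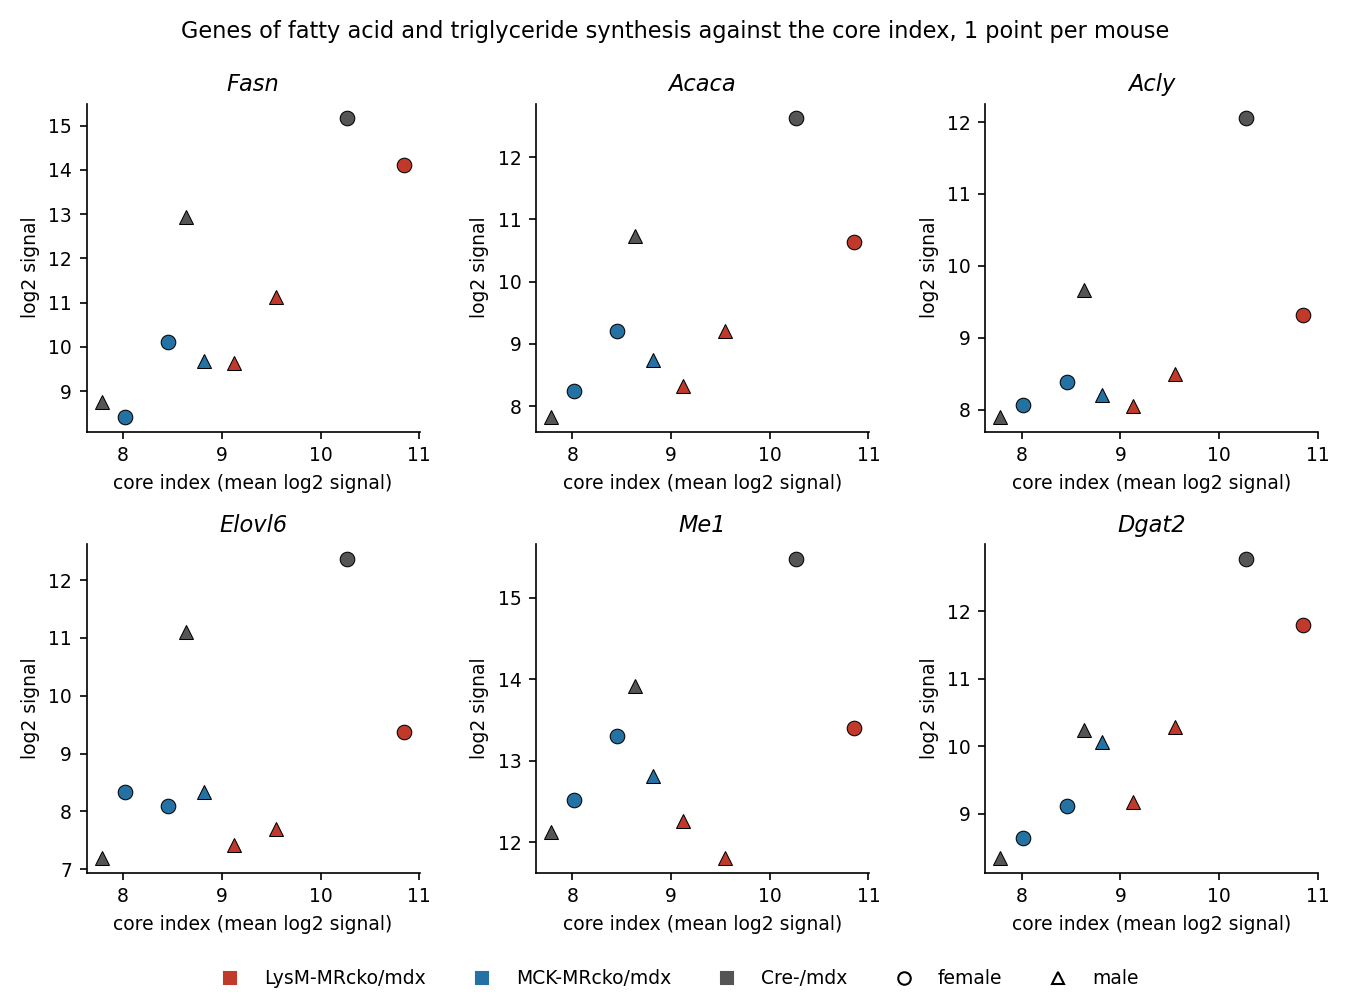
Log2 signal of Fasn, Acaca, Acly, Elovl6, Me1 and Dgat2 (vertical axes) against the core index (horizontal axes), with 1 point per mouse, coloured by group and shaped by sex. These are the 6 genes called lower at an equal index. The first and second Cre-/mdx mice (8.63 and 10.27 on the index) lie above the LysM-MRcko/mdx mice of like index, and the third Cre-/mdx mouse (7.78) lies low.

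Other adipocyte genes moved with the core index from mouse to mouse. Of 19 measured, 12 correlated with it at r over 0.7, with a median of 0.81, and the median for 9 transcription factors of fat cell formation was 0.09. The factors ran between −0.38 (Zfp423) and 0.77 (Pparg), and Pparg was the 1 factor over 0.7. The share of all clusters with r over 0.7 is not given here. Among 5478 genes spanning at least 1 on the log2 scale, Scd1 stood at 97 with r = 0.745, so few of those genes lay above it. Between genotypes, 0 of these 19 genes were called in LysM-MRcko/mdx against Cre-/mdx, Aqp7 (the glycerol channel of fat cells) was called lower in MCK-MRcko/mdx against Cre-/mdx at −1.29 (limma, unadjusted p = 0.0404), and Trarg1 (a regulator of glucose transporter traffic) was called higher in LysM-MRcko/mdx against MCK-MRcko/mdx at 1.18 (limma, unadjusted p = 0.0415). None of the 9 measured transcription factors and none of the 10 measured markers of fibro-adipogenic progenitors was called in a comparison of genotypes. The listed factor Srebf1 and the listed progenitor markers Pdgfra and Ly6a had no cluster and were not measured. Ucp1, the uncoupling protein of brown fat, was among 10 measured genes of a brown fat list. It was called higher in LysM-MRcko/mdx against MCK-MRcko/mdx at 1.13 (limma, unadjusted p = 0.0431), where 0.204% of clusters were called higher. Its log2 levels were 5.11, 5.13 and 6.70 in LysM-MRcko/mdx mice, 4.41, 4.31 and 4.84 in MCK-MRcko/mdx mice, and 5.69, 4.84 and 5.31 in Cre-/mdx mice, close to the array medians. The list had a median difference of 0.00 there, with 5 genes above 0 and 5 below. Ppargc1a, of the same list, was called lower against Cre-/mdx in both knockouts, at −1.22 in LysM-MRcko/mdx and −1.14 in MCK-MRcko/mdx. Of all clusters, 0.142% and 0.0944% were called lower in these comparisons, and the list had medians of −0.03 and −0.63. Both knockouts overlapped the Cre-/mdx mice in Ppargc1a, which had 12.01, 11.12 and 10.13 there. Its r with the core index was −0.03.

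The 10 genes outside the set whose levels were most like the core index, among 5478 genes spanning at least 1 on the log2 scale, had r between 0.95 and 0.99. They were Ces1f, Tmem45b, Lipe, Ces1d, Ankef1, Pck1, Ephx2, Slc25a10, Pcx and Sfxn1, ordered by r. Lipe encodes hormone-sensitive lipase, Pck1 the enzyme of glyceroneogenesis and Pcx pyruvate carboxylase. Lipe had log2 levels of 8.80, 8.81 and 10.16 in LysM-MRcko/mdx mice, 7.71, 8.30 and 7.79 in MCK-MRcko/mdx mice, and 8.51, 9.88 and 7.71 in Cre-/mdx mice. On the same ranking Retn stood at 16, Cyp2e1 at 55, Scd1 at 97, Fabp4 at 218, Car3 at 366 and Lep at 420. Genes were picked here for their likeness, which is a description.

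Markers of other cells moved with genotype as well. Of 10 macrophage markers, 6 were called higher in LysM-MRcko/mdx and 3 in MCK-MRcko/mdx, each against Cre-/mdx, where 0.234% and 0.227% of all clusters were called higher. The mean log2 level of the list per mouse ran between 11.5 and 11.9 in LysM-MRcko/mdx mice, between 11.3 and 11.5 in MCK-MRcko/mdx mice and between 10.3 and 10.8 in Cre-/mdx mice. All 11 measured endothelial markers were below 0 against Cre-/mdx in both knockouts, with medians of −0.43 and −0.74, and Cdh5 alone was called, in MCK-MRcko/mdx at −1.13 (limma, unadjusted p = 0.0324). Median correlations with the core index were 0.29 for the macrophage list and 0.15 for the endothelial list. The part of these cells in the levels of Fabp4 and Cyp2e1 was not tested.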

How the data were processed

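Quadriceps RNA of 9 mice was measured on 1 Clariom D array each, so n counts mice. The deposited values are log2 signals, to which the authors summarised each cluster by SST-RMA at gene level, using Expression Console from Affymetrix. They made their comparisons in Transcriptome Analysis Console. Versions and the genome build of the clusters are not given in the sources used here. The probe table gave 1 symbol for 30450 clusters, several for 2151 and none for 33071, and 15301 clusters (23.3%) had the same value in 5 or more arrays. No further normalization or filter was applied. The number of arrays, 3 per group, limits the precision.

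Groups were taken from the labels. In R 4.3.3 with limma 3.58.1, lmFit, contrasts.fit and eBayes were run on all 65672 clusters with 1 mean per group, and Benjamini-Hochberg adjustment was made over all of them. Sex was tested with group in the model. Exact permutation tests were two-sided. The core index entered as a covariate in an alternative fit, in which its 3 genes were not tested. Alternatives were a fit on the 6 arrays compared, a plain equal-variance test, sex as a covariate, the replicate number as a block, quantile normalization, median centring, leaving out dim clusters, trend and robust options, array weights, the second Scd1 cluster, and each array left out in turn. Leaving out both arrays of highest core index, and single arrays at an equal index, and the test of genotype by sex, were added after the data were seen. Fits were checked on simulated data with known changes. The members and gene lists were chosen with earlier results of these data known. Named genes are the members, the called or most changed genes of a described list, and the 10 genes most like the core index. Promoters are from RefSeq (GRCm38.p6).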

Additional observations from a re-analysis of the deposited data

Results flagged for a closer look

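Cyp2e1 differed between the knockouts at the rule for calls, though not after adjustment. It was higher than in Cre-/mdx by 1.80 in LysM-MRcko/mdx and differed by −0.65 in MCK-MRcko/mdx, and the difference between these effects, which equals the direct comparison of the knockouts, was 2.44 on the log2 scale (limma, unadjusted p = 0.00205, adjusted p = 0.494), with 3 of 3 LysM-MRcko/mdx mice above 3 of 3 MCK-MRcko/mdx mice.

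In 6 cases the difference between genotypes depended on the sex of the mice in limma at the rule for calls, none with an adjusted p under 0.05. The difference in females minus that in males was −2.19 for Adipoq, −3.28 for Cidec, −3.65 for Retn and −2.68 for Cyp2e1 in MCK-MRcko/mdx minus Cre-/mdx, −2.15 for Retn in LysM-MRcko/mdx minus Cre-/mdx and 2.96 for Cidec in LysM-MRcko/mdx minus MCK-MRcko/mdx. Each value rests on at least 1 genotype and sex with a single mouse.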

How the results depend on the processing

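Cyp2e1 was called in LysM-MRcko/mdx against both other groups under every alternative run without the core index. The number of members called in LysM-MRcko/mdx against MCK-MRcko/mdx was 1 as reported, 3 in a fit on the 6 arrays compared, 2 with a plain equal-variance test, 3 with sex as a covariate, 2 after quantile normalization and 2 with array weights, the additions being Adipoq or Adipoq and Retn. Against Cre-/mdx, 1 member (Fabp4, −1.14) was called in MCK-MRcko/mdx after quantile normalization. With both arrays of highest core index left out, 3 members were called in LysM-MRcko/mdx against Cre-/mdx and 2 against MCK-MRcko/mdx. With 1 array left out, the members called ranged between 1 and 4 for LysM-MRcko/mdx minus Cre-/mdx, 0 and 2 for MCK-MRcko/mdx minus Cre-/mdx, 1 and 3 for LysM-MRcko/mdx minus MCK-MRcko/mdx, and 0 and 4 for females minus males. The share of all clusters called is not given for these alternatives, so the counts have no background beside them. The causes were not tested.

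Directions turned in uncalled differences. Lep in MCK-MRcko/mdx minus Cre-/mdx was −0.0539 with sex as a covariate, and Cyp2e1 in females minus males was −0.11 after quantile normalization. At an equal core index, Retn was −0.64 in LysM-MRcko/mdx minus Cre-/mdx, and in LysM-MRcko/mdx minus MCK-MRcko/mdx Fabp4 was −0.11, Retn −0.54, Car3 −0.28 and Scd1 −0.83. Without both arrays of highest index, Fabp4 was 0.05 in LysM-MRcko/mdx minus Cre-/mdx, Adipoq 0.22, Plin1 0.16, Cidec 0.29 and Retn 0.50 in MCK-MRcko/mdx minus Cre-/mdx, and Scd1 −0.0083 in LysM-MRcko/mdx minus MCK-MRcko/mdx.

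With 1 array left out, the ranges that crossed 0 were, for LysM-MRcko/mdx minus Cre-/mdx, −0.56 to 0.12 (Fabp4), −0.0867 to 2.01 (Retn), −0.63 to 0.28 (Lep), −0.015 to 0.47 (Car3) and −1.08 to 0.15 (Scd1). For MCK-MRcko/mdx minus Cre-/mdx they were −0.93 to 0.22 (Adipoq), −1.04 to 0.16 (Plin1), −1.09 to 0.29 (Cidec), −1.60 to 0.50 (Retn), −0.35 to 0.36 (Lep), −0.0717 to 0.42 (Car3) and, at an equal index, −0.83 to 0.0129 (Scd1). For LysM-MRcko/mdx minus MCK-MRcko/mdx they were −0.67 to 0.17 (Lep), −0.06 to 0.14 (Car3) and −0.0083 to 1.02 (Scd1), and for females minus males −0.0425 to 0.25 (Car3) and −0.62 to 0.71 (Cyp2e1).

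With the replicate number as a block the members called were 1, 0 and 1 in the 3 comparisons of genotypes, as without it. Correlations between same-numbered mice lay between −0.23 and 0.16, within the −0.35 to 0.33 of differently numbered mice. They gave no sign that the numbers pair the mice, but with 3 mice per group they cannot exclude it.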
